A study of Mus musculus with 6 samples.

Results

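The 8 genes followed here belong to the BMP pathway and were read in pSmad2 ChIP-Seq data: the ligand genes Bmp4 and Bmp7, the receptor genes Bmpr1a and Bmpr2, the receptor Smad genes Smad1 and Smad5, and the target genes Msx1 and Msx2. These 8 of 22342 protein-coding genes on chromosomes 1 to 19 and X were taken with 20 kb on each side of the gene bounds in the mm9 assembly. Together they carried 5 listed pSmad2 peaks, at 3 of the 8 genes. One was in the Activin list, 2 were in the DMSO list and 2 in the SB list.

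BMP ligands bind a complex of type I and type II receptor kinases at the cell surface, and the type I receptor then phosphorylates Smad1, Smad5 and their close relative. These join Smad4, enter the nucleus and switch on genes such as the homeobox genes Msx1 and Msx2. Nodal and Activin use the same scheme with other type I receptors and with Smad2 and Smad3, so phosphorylated Smad2 marks the Activin branch and not the BMP branch. In the embryo the branches meet at gastrulation, when BMP4 from the extraembryonic tissue and Nodal in the epiblast both act on the forming mesoderm.

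The cells were E14 TG2A, a line of mouse embryonic stem (ES) cells. All cultures were first held for 6 h in 10 µM SB, the kinase inhibitor SB-431542, in medium with Knockout Serum Replacement and without LIF. They were then treated for 18 h with 25 ng/ml Activin for high signaling, with the vehicle DMSO at 1/5000 for endogenous signaling, or with 10 µM SB for low signaling. Each treatment gave 1 library of chromatin pulled down with an antibody to Smad2 phosphorylated at its carboxy-terminus and 1 input library of DNA that was not pulled down. With 1 library per treatment there was no replicate check. Every test below compares 2 libraries and every interval, at the 95% level, covers counting error only. The labels name a cell line but give no separate clone or passage for the treatments, and tags do not measure expression, so the cell type was not checked.

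The 6 libraries held 9757735 to 13148559 aligned tags. That is 0.740 to 0.996 tags per 200 bp on average, so a short site rests on few tags. Keeping 1 tag per position and strand removed 19.9% to 24.6% of the tags in the ChIP libraries, against 5.64% to 6.94% in the inputs. The SB and DMSO ChIP libraries differed in their share of tags at GC-rich DNA. Outside the peak regions, the SB over DMSO ratio at the GC content of the 8 start-site windows was 1.08 to 1.49. The ratio outside the peak regions at the same GC content, called the GC expectation, is given beside the calls at the 8 genes. It came from ChIP tags, and whether coverage or weak binding outside the listed peaks set it was not tested.

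The listed peaks were few and small. In the Activin list 1 of the 8 genes had a peak, where 23.3% of all coding genes had one. In the DMSO list it was 2 of 8 against 28.8%, in the SB list 2 of 8 against 24.7%, and in any list 3 of 8 against 41.5%. The peaks were listed with 9, 9, 10, 18 and 31 tags, and both of those above 10 were in the SB list, at the receptor genes. Bmp7, Smad1, Smad5, Msx1 and Msx2 had no peak in any list. The 17276 peaks of the 3 lists merged into 12235 regions, of which 5 were at the 8 genes, and each of the 5 held a peak of 1 list only. Of all 12235 regions, 4820 held an Activin peak, 6626 a DMSO peak and 4543 an SB peak. Most regions of the genome were thus also of 1 list, and this is not a trait of the 8 genes. A region listed for 1 treatment was chosen for a high value there, and its ratio to another treatment leans toward the treatment that listed it.

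**Figure D1:**
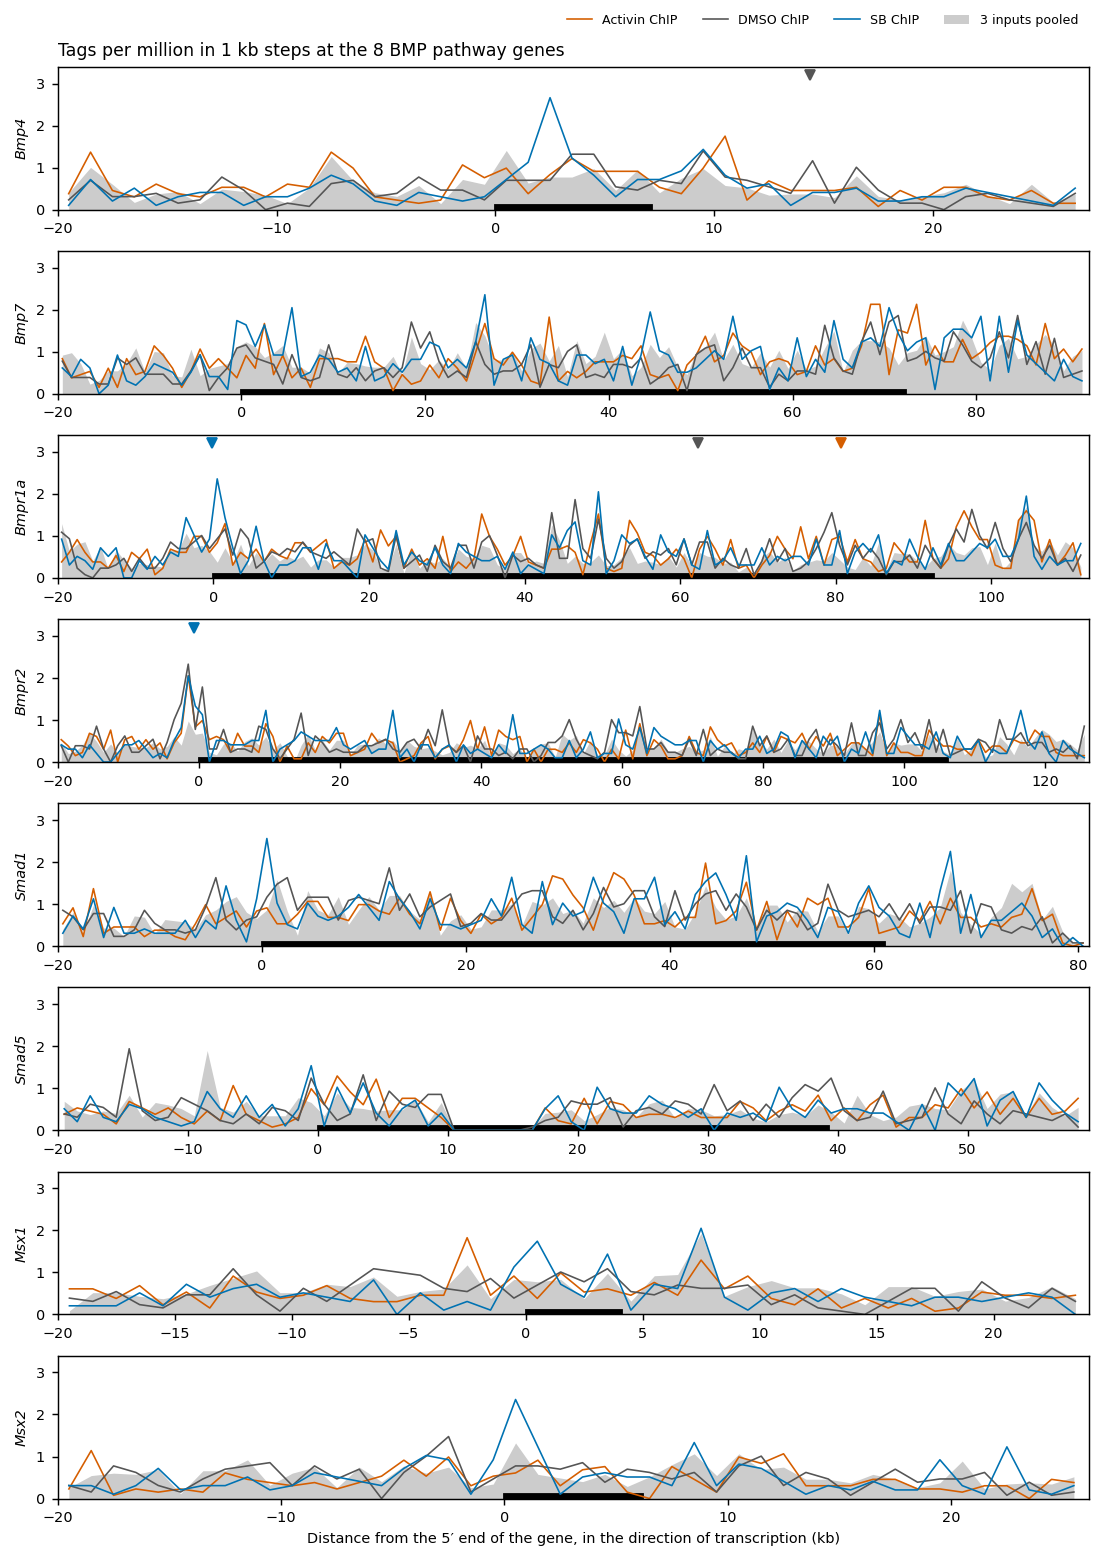
ChIP tags per 1000000 aligned tags in steps of 1 kb (vertical axis) against the distance from the 5′ end of the gene in kb (horizontal axis), 1 panel per gene, with Activin in orange, DMSO in dark grey and SB in blue, and the 3 input libraries pooled as the light grey area. The black bar is the gene and triangles mark the 5 listed peak positions in the colour of their list; the ChIP lines run close to the input over most of each window.

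A second reading took every 200 bp bin with at least 10 tags in ChIP and input together and compared ChIP with input by a one-sided exact binomial test. At the 8 genes 92 such bins were tested for Activin, 104 for DMSO and 73 for SB. One bin was called for Activin, 1 for DMSO and 0 for SB, where 2.32%, 3.77% and 3.42% of all tested bins were called. The Activin bin lay in an intron of Bmp7 and the DMSO bin in an intron of Bmpr1a, and neither held a listed peak. With 0 input tags, the fewest ChIP tags that were called anywhere in the genome were 11 for Activin and 10 for DMSO and for SB. For DMSO and SB this is the minimum of 10 tags for a test, so bins with 0 input tags and fewer ChIP tags were not tested. For Activin it lay above that minimum.

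Among the ligand genes, Bmp4 encodes the BMP that patterns the early mesoderm. Its window on chromosome 14, chr14:46983195-47030344, held 236 bins with a median of 1 ChIP tag per bin in each treatment. The single site was in the DMSO list, with 9 listed tags, and was intergenic. It lay 14.5 kb from the 5′ end of the gene, past its 3′ end, and the closest start site was that of Gm15217, 3316 bp away. The region chr14:46995631-46995961 held 1 Activin tag, 13 DMSO tags and 2 SB tags, and the matching inputs had 1, 1 and 4. Only the DMSO ChIP library stood above its input there. The Activin to DMSO ratio was 0.0754 (0.00177 to 0.502), with an adjusted p of 0.00894 by the two-sided exact binomial test over all regions. SB over DMSO was 0.203 (0.0223 to 0.897), which did not pass, at an adjusted p of 0.0674. The 13 DMSO tags lay at 9 distinct positions and strands, and with 1 tag kept for each the Activin to DMSO comparison no longer passed, at an adjusted p of 0.0677. The GC expectation was 1.03 and left the call in place. The sequence around the highest pileup at this site is given because it is the one of the 5 regions that was called between Activin and DMSO. It is chr14:46995676-46995975 on the plus strand of mm9, and capitals mark the 4-letter Smad motif CAGA on either strand, extended by 1 letter where it reads CAGAC.
Bmp4 site 1: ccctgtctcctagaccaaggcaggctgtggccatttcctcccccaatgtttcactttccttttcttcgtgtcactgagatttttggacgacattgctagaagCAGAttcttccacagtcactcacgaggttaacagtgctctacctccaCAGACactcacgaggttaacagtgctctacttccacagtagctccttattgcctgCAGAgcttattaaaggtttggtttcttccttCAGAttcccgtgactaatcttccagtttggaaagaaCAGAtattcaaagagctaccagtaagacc
In this stretch of 300 bp CAGA occurred 5 times and CAGAC 1 time among them.

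At the Bmp4 start sites themselves the 3 libraries did not separate. Within 1 kb of the start sites there were 24 Activin, 17 DMSO and 12 SB tags, against 26, 25 and 25 input tags. Activin over DMSO was 1.38 (0.713 to 2.74) and Activin over SB 1.48 (0.714 to 3.26), and neither passed the test. Bmp4 was the one gene of the 8 with its lowest start-site level, in tags per 1000000 aligned tags, in SB, at 1.23 against 1.32 in DMSO and 1.83 in Activin. Within 500 bp it had 21 Activin, 6 DMSO and 8 SB tags, and Activin over DMSO of 3.43 did not pass, at an adjusted p of 0.190 by the exact binomial test.

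Bmp7 encodes a ligand that can pair with BMP4 as a heterodimer. Its window of 112 kb on chromosome 2, chr2:172673513-172785822, had no listed peak. The nearest listed positions were 298 kb upstream in the Activin list, 299 kb upstream in the DMSO list and 63.6 kb upstream in the SB list. The called Activin bin, chr2:172695801-172696000, held 11 Activin, 1 DMSO and 0 SB ChIP tags and 0, 2 and 1 input tags, with an adjusted p of 0.0450 by the one-sided exact binomial test. The bin was picked for its high Activin count, and the treatments were not compared there by a test. It lay 69.9 kb into the gene, in an intron, and the 11 tags lay at 9 distinct positions and strands. It was at the limit of what could be called, and with 1 tag per position it was not. At the Bmp7 start site 17 Activin, 29 DMSO and 33 SB tags were counted, against 19, 26 and 36 input tags. ChIP over input was 0.786 (0.384 to 1.60), 1.10 (0.626 to 1.95) and 0.988 (0.597 to 1.63), and each interval included 1. Activin over SB was 0.382 (0.200 to 0.706), with an adjusted p of 0.0254 by the exact binomial test. The window had 64.4% GC, from which a ratio of 0.661 was expected, and against that expectation the adjusted p was 0.365.

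Of the receptor genes, Bmpr1a encodes the type I receptor that BMP4 uses in the early embryo. It carried 3 of the 5 listed peaks, 1 from each list, at 3 different places within the window chr14:35203920-35336527. Their sequences are given to show that the 3 lists pointed to different stretches of the gene. They are on the plus strand of mm9, with CAGA and CAGAC on either strand in capitals, and cover chr14:35235653-35235952 for site 1, chr14:35253947-35254246 for site 2 and chr14:35316192-35316359 for site 3, where 132 of the 300 bp were left out because they run into an untranslated exon.
Bmpr1a site 1: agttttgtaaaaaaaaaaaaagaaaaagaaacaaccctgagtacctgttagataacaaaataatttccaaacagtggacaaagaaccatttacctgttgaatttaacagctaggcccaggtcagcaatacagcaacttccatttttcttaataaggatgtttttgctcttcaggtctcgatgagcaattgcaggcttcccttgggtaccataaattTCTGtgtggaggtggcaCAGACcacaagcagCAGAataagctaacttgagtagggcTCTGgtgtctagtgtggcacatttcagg
Bmpr1a site 2: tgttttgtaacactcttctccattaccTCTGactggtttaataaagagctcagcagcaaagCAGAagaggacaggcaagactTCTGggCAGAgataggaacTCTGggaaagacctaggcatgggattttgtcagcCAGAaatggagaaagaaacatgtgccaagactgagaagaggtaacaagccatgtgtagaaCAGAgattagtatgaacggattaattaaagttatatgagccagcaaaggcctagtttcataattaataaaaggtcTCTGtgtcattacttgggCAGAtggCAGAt
Bmpr1a site 3: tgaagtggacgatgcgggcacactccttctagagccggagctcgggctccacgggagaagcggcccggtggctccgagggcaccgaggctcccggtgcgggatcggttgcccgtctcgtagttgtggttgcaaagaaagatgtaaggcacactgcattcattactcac

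Site 1 at Bmpr1a, in the Activin list with 9 tags, was in a coding exon 80.7 kb from the 5′ end of the gene. Activin had 9 tags, DMSO 3 and SB 3, and the inputs had 1, 4 and 1. Activin over DMSO was 2.94 (0.733 to 16.9) and Activin over SB 2.23 (0.556 to 12.8), and neither passed the exact test, at adjusted p of 0.269 and 0.424. The counts were highest in Activin, but the intervals included 1.

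Site 2 at Bmpr1a, in the DMSO list with 10 tags, was in an intron 62.4 kb from the 5′ end. It held 4 Activin, 11 DMSO and 2 SB tags, and 4, 1 and 1 input tags. Activin equalled its own input in number of tags and DMSO did not. Activin over DMSO was 0.356 (0.0827 to 1.20) and SB over DMSO 0.240 (0.0259 to 1.10), with adjusted p of 0.165 and 0.129 by the exact binomial test.

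Site 3 at Bmpr1a was in the SB list with 18 tags and sat at the 5′ end of the gene. The listed position was 0.158 kb upstream, and the highest pileup was 185 bp inside the gene, in an intron. The region chr14:35316159-35316685 held 11 Activin, 11 DMSO and 21 SB tags against 2, 6 and 2 input tags. SB was the highest library, and Activin and DMSO were level. SB over DMSO was 2.52 (1.16 to 5.79), called higher at an adjusted p of 0.0497 by the exact binomial test. Activin over SB was 0.389 (0.169 to 0.843), called lower at an adjusted p of 0.0457. The region had 61.3% GC, for which the GC expectation was 1.37 for SB over DMSO and 0.741 for Activin over SB. Against those ratios the adjusted p was 0.244 and 0.251, and with 1 tag per position 0.153 and 0.0779, so neither call held.

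The DMSO library also had a called bin in Bmpr1a, at chr14:35237201-35237400 in an intron 79.2 kb from the 5′ end. There were 12 DMSO, 6 Activin and 2 SB tags, and 0, 2 and 2 input tags in the same order, with an adjusted p of 0.0174 by the one-sided exact binomial test. The 12 DMSO tags lay at 7 distinct positions and strands, and with 1 tag for each no bin was called in DMSO. It lay 1.49 kb from the Activin peak at site 1. The 4 annotated start sites of Bmpr1a together had 46 Activin, 50 DMSO and 55 SB tags, and 22, 42 and 39 input tags. No pair of treatments passed the test over that wider window. ChIP over input at these start sites was 1.84 (1.08 to 3.2) in Activin, 1.18 (0.764 to 1.8) in DMSO and 1.52 (0.990 to 2.35) in SB. Within 500 bp of them the counts were 19, 23 and 40, with SB over DMSO of 2.30 (adjusted p = 0.0391 by the exact binomial test) and Activin over SB of 0.353 (adjusted p = 0.00411). This narrower window contains all of site 3, so 11, 11 and 21 of these tags are the same ones. The GC expectations were 1.20 and 0.872, and against them the adjusted p was 0.265 and 0.0547. With 1 tag per position SB over DMSO did not pass, at 0.154, and Activin over SB did, at 0.0217, both by the exact test.

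Bmpr2 encodes the type II receptor, the partner that activates BMPR1A in the complex. Its one listed peak had 31 tags, in the SB list, 0.627 kb upstream of the gene. The sequence chr1:59819639-59819938, on the plus strand of mm9, is given because this was the listed peak with the most tags at the 8 genes. It is centred on the highest pileup of extended tags in any ChIP library, scaled by its tags, and that position lies 1065 bp from the listed SB position. The highest pileup anywhere in the region was 12 for Activin and for DMSO and 7 for SB. The stretch holds a single CAGA, within CAGAC, in capitals.
Bmpr2 site 1: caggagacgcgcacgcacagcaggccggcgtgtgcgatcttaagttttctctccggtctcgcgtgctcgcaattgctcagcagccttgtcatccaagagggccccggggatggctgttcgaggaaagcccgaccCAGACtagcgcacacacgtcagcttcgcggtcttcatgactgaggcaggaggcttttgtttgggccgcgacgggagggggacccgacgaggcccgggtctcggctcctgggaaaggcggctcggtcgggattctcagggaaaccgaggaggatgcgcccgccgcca

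The rebuilt region at Bmpr2, chr1:59819079-59820854, spanned 1776 bp and held 34 Activin, 39 DMSO and 33 SB tags, against 17, 28 and 10 input tags. No cluster of SB tags was close to the listed 31 tags. The start was therefore counted back from the listed position until 31 SB tags, 1 per position and strand, were held. The SB count was thus set by the list, and the width by that count. Within this interval the number of tags did not separate the treatments, and a narrower one was not tested. Activin over DMSO was 0.854 (0.523 to 1.39), SB over DMSO 1.12 (0.681 to 1.82) and Activin over SB 0.765 (0.460 to 1.27), with adjusted p of 0.699, 0.767 and 0.437 by the exact binomial test. ChIP over input was 1.76 (0.954 to 3.35) in Activin, 1.37 (0.824 to 2.32) in DMSO and 3.56 (1.71 to 8.09) in SB. The SB value was the highest, and the SB input was the lowest of the 3 inputs. The region had 63.8% GC, from which ratios of 1.49 for SB over DMSO and 0.661 for Activin over SB were expected. At the start site of Bmpr2 there were 24 Activin, 32 DMSO and 20 SB tags, and no pair passed.

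**Figure D2:**
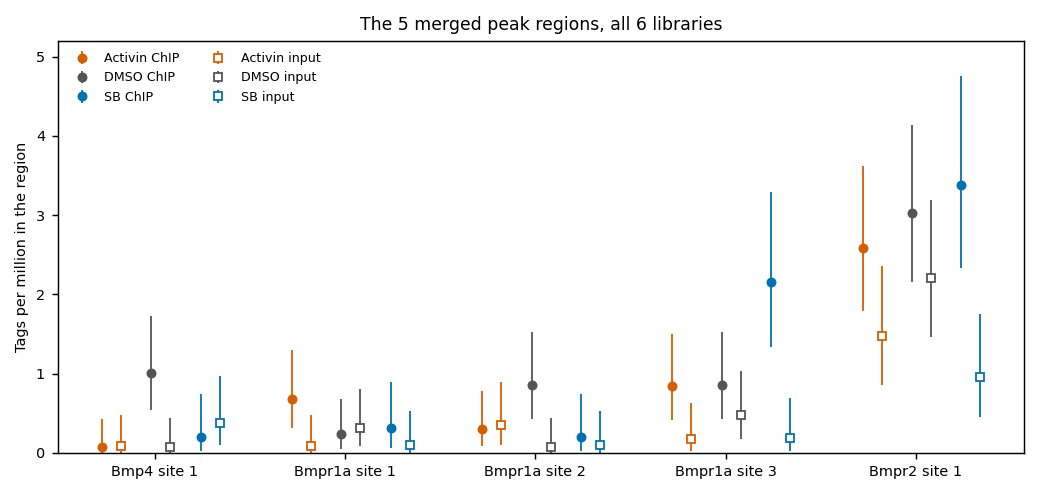
Tags per 1000000 aligned tags in each of the 5 merged regions at Bmp4, Bmpr1a and Bmpr2 (vertical axis) for all 6 libraries, with filled circles for ChIP, open squares for input, Activin in orange, DMSO in dark grey and SB in blue. Bars are exact 95% Poisson intervals of the counts; at Bmp4 site 1 DMSO stood at 1.01 against 0.0761 in Activin, and at Bmpr1a site 3 SB stood at 2.15 against 0.854 in DMSO.

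Over the 5 regions, Activin against DMSO gave 0 called higher and 1 lower, the Bmp4 site, where 7.21% and 19% of all regions were called in these directions. SB against DMSO gave 1 higher, Bmpr1a site 3, and 0 lower, where 11.7% and 12.8% of all regions were called. Activin against SB gave 0 higher and 1 lower, again Bmpr1a site 3, where 9.03% and 17.3% were called. The median log2 ratio was -0.23 over the 5 regions and -0.28 over all regions for Activin over DMSO. It was 0.16 and -0.15 for SB over DMSO, and -0.39 and -0.21 for Activin over SB. With 5 regions, nearly all of few tags, these shares are not set apart from those over all regions. No pair of input libraries was called at any of the 5 regions by the same test.

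The receptor Smads had no listed peak. Smad1 encodes a Smad that BMP receptors phosphorylate, and its window of 101 kb on chromosome 8 was the one with the most tested bins in SB, 27, of which none was called. Its start-site window held 23 Activin, 24 DMSO and 36 SB tags, against 9, 27 and 17 input tags. SB was the highest in tags per 1000000 aligned tags, at 3.69 against 1.86 in DMSO and 1.75 in Activin. SB over DMSO was 1.98 (1.15 to 3.47) with an adjusted p of 0.121 and Activin over SB was 0.474 (0.268 to 0.822) with an adjusted p of 0.0616 by the exact binomial test, so neither passed. The GC expectations were 1.20 and 0.872. The input counts at this site, 9 in Activin and 27 in DMSO, differed as well. ChIP over input was 2.24 (1.00 to 5.51) in Activin, 0.877 (0.484 to 1.58) in DMSO and 2.28 (1.25 to 4.33) in SB. Within 500 bp, where the counts were 10, 12 and 24, Activin over SB of 0.309 did pass, at an adjusted p of 0.0239 by the exact binomial test. Against its GC expectation of 0.741 the adjusted p was 0.268, and with 1 tag per position it was 0.0562.

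Smad5 encodes the other of these receptor Smads. Its 4 annotated start sites had 35 Activin, 25 DMSO and 27 SB tags, against 14, 21 and 13 input tags. Activin over DMSO was 1.37 (0.798 to 2.39), SB over DMSO 1.43 (0.796 to 2.56) and Activin over SB 0.962 (0.566 to 1.65). Each of these intervals included 1. ChIP over input was 2.2 (1.15 to 4.42) in Activin, 1.18 (0.631 to 2.21) in DMSO and 2.24 (1.12 to 4.7) in SB. The intervals for Activin and SB lay above 1. ChIP over input at start sites was not tested or counted over all coding genes. The nearest listed positions were 187 kb away in the Activin list, 621 kb in the DMSO list and 1238 kb in the SB list.

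Msx1 and Msx2 encode homeobox repressors that respond to BMP in many tissues, and neither had a listed peak or a called bin. The nearest listed position to Msx1 was 175 kb downstream, in the SB list, and the nearest to Msx2 was 297 kb downstream, in the DMSO list. At the Msx1 start site 18 Activin, 13 DMSO and 28 SB tags were counted, against 15, 19 and 21 input tags. SB was high and DMSO low. SB over DMSO was 2.84 (1.43 to 5.98), called higher at an adjusted p of 0.0439 by the exact binomial test, and 96.6% of coding genes had a lower ratio. SB ChIP over SB input at the same place was 1.44 (0.787 to 2.66). Against the GC expectation of 1.27 the adjusted p was 0.285, and with 1 tag per position it was 0.190. Within 500 bp of the start the counts were 10, 11 and 10, and SB over DMSO was 1.20 (adjusted p = 0.959 by the exact binomial test).

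At the Msx2 start site there were 15 Activin, 16 DMSO and 30 SB tags, against 16, 17 and 23 input tags. Activin and DMSO were level with each other and with input. SB over DMSO was 2.48 (1.31 to 4.86) and did not pass, at an adjusted p of 0.0644. Activin over SB was 0.371 (0.186 to 0.712), called lower at an adjusted p of 0.0250 by the exact binomial test. Against the GC expectation of 0.924 the adjusted p was 0.0860, and with 1 tag per position it was 0.132. SB ChIP over its input was 1.41 (0.790 to 2.53).

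Across the 8 start-site windows, Activin against DMSO called 0 genes higher and 0 lower, where 0.215% and 0.77% of all coding genes were called. The smallest unadjusted p was 0.0766, at Bmp7. SB against DMSO called 1 higher, Msx1, and 0 lower, where 3.21% and 0.192% of all genes were called. Activin against SB called 0 higher and 2 lower, Bmp7 and Msx2, where 0.389% and 7.45% were called. The median SB over DMSO ratio was 1.48 over the 8 genes and 1.18 over all coding genes, and for Activin over SB it was 0.547 and 0.813. With each window set against the ratio expected from its GC content, the medians were 1.27 and 1.08 for SB over DMSO and 0.617 and 0.862 for Activin over SB. In that setting 0 of the 8 genes were called in any of the 3 comparisons. Of all coding genes, 0.246% were then called higher and 1.10% lower for Activin over DMSO. These shares were 0.582% and 0.152% for SB over DMSO, and 0.255% and 2.70% for Activin over SB. In windows of 500 bp each side, SB against DMSO called 1 higher, Bmpr1a, where 3.92% of all coding genes were called, and Activin against SB called 4 lower, Bmp7, Bmpr1a, Smad1 and Msx2, where 8.33% were called. None of these 5 calls held against the GC expectation, and 1 of them, Bmpr1a for Activin against SB, held with 1 tag per position.

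**Figure D3:**
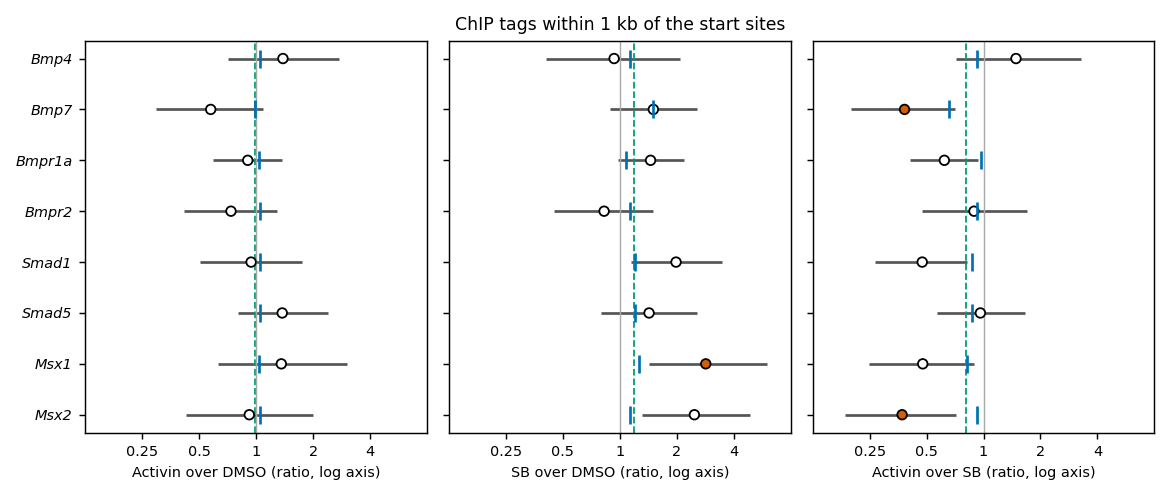
Ratio of ChIP tags within 1 kb of the start sites for each of the 8 genes, scaled by total tags, on a log axis, for Activin over DMSO, SB over DMSO and Activin over SB. Circles are ratios with 95% intervals, filled orange where the adjusted p passed 0.05, blue ticks are the ratios expected from GC content, and the dashed green line is the median over all coding genes; Msx1 in the middle panel and Bmp7 and Msx2 in the right panel are filled.

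Summed over the whole gene and its flanks, ChIP and input differed little. ChIP over input ran from 0.812 to 1.25 in Activin, from 0.823 to 1.14 in DMSO and from 0.671 to 1.14 in SB, and the medians over the 8 genes were 0.981, 1.00 and 0.929 where those over all coding genes were 1.00, 0.995 and 0.984. Bmpr1a was the highest in Activin, at 1.25 (1.14 to 1.38), and 88.4% of coding genes had a lower ratio. Msx1 was the lowest in SB, at 0.671 (0.563 to 0.797), and only 2.32% of coding genes had a lower ratio. For Msx1 the SB input itself was high, with 98.8% of coding genes lower in SB input over DMSO input. In the order of the 8 genes in Activin the intervals of each neighbouring pair overlapped. Between treatments, all 8 windows lay within the central 95% of coding genes in each of the 3 comparisons, with Activin over DMSO between 0.839 at Msx2 and 1.15 at Bmp4 and SB over DMSO between 0.896 at Bmpr2 and 1.16 at Bmp7.

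**Figure D4:**
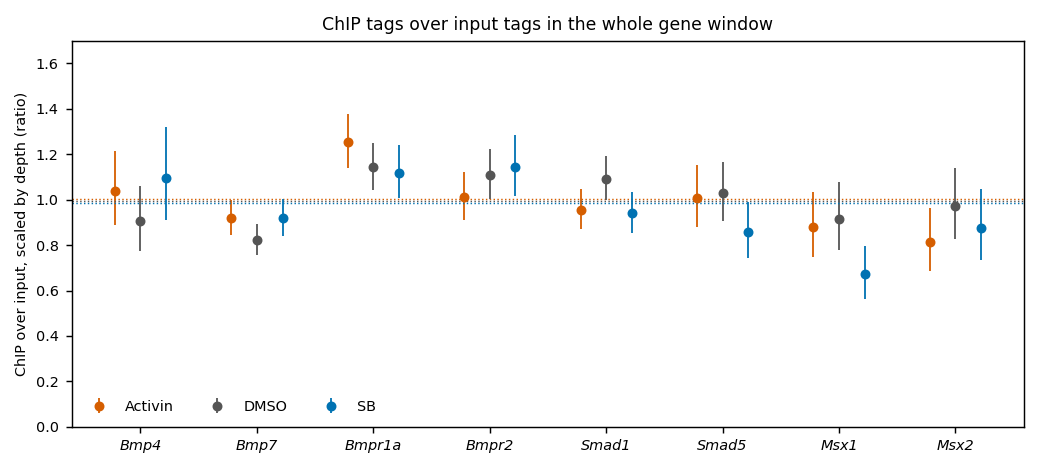
ChIP over input tags, scaled by total tags (vertical axis, ratio), in the gene and 20 kb on each side for each of the 8 genes, with Activin in orange, DMSO in dark grey and SB in blue. Bars are 95% intervals from counting and dotted lines are the medians over all coding genes; Bmpr1a in Activin is the highest point and Msx1 in SB the lowest.

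The bin with most ChIP tags was counted in each window whatever its call. In Bmp7 it reached 14 Activin, 11 DMSO and 15 SB tags, at 3 different places. In Smad1 it reached 10, 12 and 11, and in the SB bin the Activin, DMSO and SB inputs had 12, 7 and 10 tags. In Smad5 the maxima were 11, 10 and 7, in Msx1 10, 7 and 9, and in Msx2 7, 12 and 8. In none of the 8 genes was the highest bin of all 3 treatments the same. The windows held 220 to 732 bins with a median of 0 to 2 ChIP tags per bin. The same count was not made over all coding genes, so it is not read as a difference between treatments.

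Motifs were counted on both strands in the 300 bp around the highest pileup of each region, as letters and not as proven sites. CAGA, the short Smad motif, was found at all 5 regions, from 1 match at Bmpr2 to 10 at Bmpr1a site 2, and 97.4% of all 12235 regions held it. CAGAC was in 3 of the 5 regions (Bmp4 site 1, Bmpr1a site 1 and Bmpr2 site 1), as did 57.1% of all regions. GGCGCC, a GC-rich motif known from Smad1 and Smad5, was in 0 of the 5 and in 5.80% of all regions. AATNNACA, known from the Smad2 partner FOXH1, was in 0 of 5 and 17.0% of all, and the octamer ATTTGCAT in 0 of 5 and 1.66% of all. A CAGAC match is also counted as CAGA.

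Beyond the 20 kb limit, 8 further regions lay within 50 kb of 3 of the genes. At Smad1 a region with a peak in each list, chr8:81818659-81820563, was 104 kb from the 5′ end and 472 bp from the start site of Mmaa. It held 68 Activin, 54 DMSO and 48 SB tags against 11, 24 and 13 input tags, and no pair of treatments passed. Upstream of Bmpr2, 45.0 kb from its start, a region held 38, 44 and 17 tags, with SB over DMSO of 0.510 (0.273 to 0.911) at an adjusted p of 0.0674 by the exact binomial test. Upstream of Bmpr1a, 46.2 kb from its start and in an intron of Ldb3, Activin was called lower than SB with 18 against 31 tags. The ratio was 0.431, with an adjusted p of 0.0271 by the same test. This region was in the SB list only, and 17.3% of all regions were called in that direction. The call is not given here with 1 tag per position or against a GC expectation.

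The other genes of the pathway were counted in the same way. Of 69 genes, 67 were matched to the annotation by name, and 31 of the 67 had a listed peak in any list, where 41.5% of all coding genes had one. Their 63 regions gave 6 higher and 9 lower for Activin against DMSO, 12 higher and 7 lower for SB against DMSO, and 5 higher and 13 lower for Activin against SB. Over all regions these shares were 7.21% and 19%, 11.7% and 12.8%, and 9.03% and 17.3%. With 1 tag per position the counts were 1 and 4, 4 and 2, and 6 and 10. The shares over all regions given here are for all tags, so these last counts cannot be set against them. By role, a peak in any list was found at 3 of 12 other ligands, 7 of 9 other receptors and coreceptors, 2 of 4 other Smads, 8 of 19 extracellular antagonists and modulators, 7 of 11 intracellular regulators and 4 of 12 other targets.

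Among the other targets, the Id genes, repressors of basic helix-loop-helix factors, had the smallest adjusted p. The region 2.87 kb upstream of Id2 held 33 Activin, 24 DMSO and 80 SB tags, a SB over DMSO ratio of 4.40 with an adjusted p of 7.17e-10 by the exact binomial test. A region 1.30 kb from the start of Id3 had 31, 30 and 69 tags and the start-site window of Id1 41, 40 and 77, with ratios of 3.04 and 2.54 (adjusted p of 1.32e-05 and 3.54e-04). These calls at Id1, Id2 and Id3 held with 1 tag per position and with GC scaling, which none of the 3 start-site calls at the 8 genes did. At the start site of Id4 the counts were 39, 14 and 41, and SB over DMSO of 3.87 (exact test, adjusted p = 9.34e-04) held with 1 tag per position but not with GC scaling. A second Id3 region, 8.83 kb upstream, went the other way with 2, 16 and 2 tags, and SB over DMSO was 0.165 (exact test, adjusted p = 0.0354), a call lost with 1 tag per position.

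Among the other Smads, Smad7, an inhibitor of both branches, had 3 regions that were higher in Activin than in SB. The one with the smallest adjusted p, 6.48 kb upstream of its start, held 130 Activin, 97 DMSO and 20 SB tags, with Activin over SB of 4.82 (adjusted p = 2.42e-12 by the exact binomial test). A further Smad7 region, 26.4 kb from the start, held 40, 9 and 21 tags and was called higher than DMSO in Activin and in SB. Its SB call held neither with 1 tag per position nor with GC scaling, and Activin against SB was not called there. Smad4, the shared partner Smad, was called at its start site, at Activin over SB of 0.421 (exact test, adjusted p = 0.0244), a call that did not hold with GC scaling.

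Among the extracellular and intracellular regulators, a region 280 bp from the start of Dand5, a Nodal and BMP antagonist, held 4 Activin, 39 DMSO and 20 SB tags, with Activin over DMSO of 0.101 (adjusted p = 3.00e-06 by the exact binomial test). A region 366 bp upstream of the Dand5 start held 37, 23 and 42 tags and was called higher in SB than in DMSO, at 2.41 (exact test, adjusted p = 0.00826), which held neither with 1 tag per position nor with GC scaling. Of the follistatin family, the start-site windows of Fst, with 7, 17 and 25 tags, and of Fstl3, with 16, 31 and 37, were lower in Activin than in SB, and the call at Fstl3 was lost with 1 tag per position. A region 11.4 kb from the start of Fst went the other way, with 16, 5 and 1 tags. A region of Fstl1 held 0, 10 and 3 tags and was lower in Activin than in DMSO. An intron of Zfp423, a Smad cofactor, held 40, 24 and 3 tags and Activin over SB was 9.90 (exact test, adjusted p = 1.78e-05). Tob1, an inhibitor of Smad signaling, had 32, 40 and 71 tags at its start site, with SB over DMSO of 2.34 (exact test, adjusted p = 0.00225), a call that did not hold with GC scaling. A coding exon of Tob1 held 21, 41 and 17 tags, with Activin over DMSO of 0.502 (exact test, adjusted p = 0.045), a call lost with 1 tag per position. SB over DMSO there was 0.547 and was called lower with GC scaling only. A coding exon of Ppm1a, a phosphatase of Smads, held 0, 13 and 2 tags, and the start-site window of Ctdsp1, another phosphatase, 36, 41 and 61, where neither of its 2 calls held with GC scaling.

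Among the other ligands, an intron of Bmp5 held 4 Activin, 14 DMSO and 1 SB tags with 0 tags in all 3 inputs, and SB over DMSO was 0.0943 (adjusted p = 0.0224 by the exact binomial test). The Gdf5 region, 116 bp from the start of Cep250, and the start site of Bmp8a were each called in 1 comparison, with adjusted p of 0.0462 and 0.0493. Among the receptors, the region of Acvr1, the gene of another type I receptor, was 405 bp from its start and held 12, 25 and 6 tags, with SB over DMSO of 0.317 (exact test, adjusted p = 0.0443). Rgmb, a BMP coreceptor, had 9, 15 and 23 tags with Activin over SB of 0.290 (exact test, adjusted p = 0.00803), its relative Rgma was called at its start site (adjusted p = 0.0405), and the region of Eng held 87, 122 and 76 tags with Activin over DMSO of 0.699 (adjusted p = 0.0448). With 1 tag per position the calls at Bmp5, Gdf5, Bmp8a, Acvr1, Rgma and Eng were lost, and with GC scaling those at Gdf5, Bmp8a and Rgma.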

How the data were processed

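The members, gene lists and tests were chosen with earlier results of these data known. The deposited data were aligned tags of 35 bp in 6 libraries, of unit other (chromosome, start, end and strand), and 3 MACS peak lists in which the authors gave a position and a tag count per peak. The authors ran MACS at a p-value cutoff of 1e-05 with tags extended to 200 bp. The aligner is not given in the sources used here, and the build is mm9 per the labels. Gene bounds came from GENCODE on the same assembly.

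Each tag was counted at the middle of a fragment of 200 bp and scaled by the total tags. Peak intervals were rebuilt from the tags and merged at 1 bp of overlap. Counts were compared by exact binomial tests, two-sided ones summing all outcomes no more likely than the one observed, with Benjamini-Hochberg adjustment over all bins, regions or genes at a threshold of 0.05. Intervals were Clopper-Pearson. Start-site windows reached 1 kb each side. GC expectations came from 500 bp windows outside regions in classes of 2.5 points. The test code was also checked on simulated data. Python 3 with scipy was used. Genes of other pathway lists were named where called, at most 4 per list, by smallest adjusted p. The listed positions of the DMSO and SB lists lay near the ends of the rebuilt intervals. All files were used. A result at 1 region of the other pathway genes is not reported here.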

Additional observations from a re-analysis of the deposited data

How the results depend on the processing

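Alternatives changed 1 choice at a time, and 49 of the recomputed counts stayed within 1.5 times while 41 moved. With 1 tag per position and strand the called regions went from 1 to 0 in each of the 3 comparisons, the start-site calls to 0 and the called bins to 0 in Activin and DMSO. At an adjusted p under 0.001 all of these counts were 0. With GC-matched ratios the called regions were 0 for SB against DMSO and for Activin against SB, and the start-site calls were 0. With the 5′ end of the tag, SB against DMSO had 2 called regions and 0 start sites and DMSO had 0 called bins. With 2 times the smaller tail as the p-value, chosen after seeing the data, both SB region comparisons had 0 calls and so did the SB against DMSO start sites. Start-site windows of 500 bp gave 4 lower for Activin against SB (Bmp7, Bmpr1a, Smad1 and Msx2; 8.33% of all coding genes were called), and for SB against DMSO the 1 call was Bmpr1a and not Msx1. Scaling by tags outside regions gave 3 Activin bins and 1 SB bin, bins of 500 bp gave 0 in Activin and 1 in SB, and a minimum of 20 tags gave 0 in Activin and DMSO. With a flank of 50 kb there were 5, 6 and 7 listed peaks at 3, 4 and 3 genes in the Activin, DMSO and SB lists, and 2 called regions for Activin against SB. Peaks of at least 13 tags left 0 peaks and 0 genes in Activin and DMSO, and 2 peaks at 2 genes in SB. The shares of all coding genes with a peak are given above for 20 kb and all peaks only. No paired analysis was possible because each treatment has 1 library. The cause of these shifts was not tested. At about 1 tag per 200 bp, a bin with 0 input tags was called from 10 or 11 ChIP tags, and 10 tags was also the minimum for a test.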
